A study of Homo sapiens with 12 samples.

Results

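Among the peaks of open chromatin mapped in KYSE510 cells, 1600 of 251400 merged regions carried a peak in all 3 libraries of HCP5-silenced cells and in none of the 3 control libraries. These 1600 silenced-only regions, 0.636% of the merged regions, were selected on the peak heights of the same 6 libraries. Peaks with a height of 3 or more on chromosomes 1 to 22 were joined into regions when they shared 1 bp or more, and presence or absence of such a peak in each library decided membership. KYSE510 and KYSE150 are established human oesophageal squamous carcinoma cell lines. Both were grown in RPMI-1640 medium with 10% FBS, and each was profiled in 3 control and 3 HCP5-silenced libraries, 12 in all. How HCP5 was silenced and what the control cells received are not given in the sources used here, nor is it said whether the replicates were separate cultures. ATAC-seq measures DNA, so the loss of the HCP5 transcript was not checked. Height is the pileup of a peak in the unit the authors deposited, and it is not normalised between libraries.

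ATAC-seq uses a transposase that inserts sequencing adapters where DNA is not wrapped tightly in nucleosomes, so a peak marks a promoter, an enhancer or another accessible element. Promoters of active genes are open in most cell types, whereas distal elements vary more between cell types and states. HCP5 is a long non-coding RNA gene of the major histocompatibility complex. The series title links HCP5 to apoptosis and to transcription of c-Myc through UTP3, a nucleolar protein. MYC is a transcription factor that drives growth and ribosome production, and BCL2 is the founding inhibitor of mitochondrial apoptosis.

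The 1600 regions were mostly distal, but 32 of them overlapped a 300-base window around an annotated gene start, from 250 bases before to 50 after it, as RefSeq lists it on GRCh38.p14. These 32 regions met 38 of 33558 windows. The 250 bases before the start are printed for 5 coding genes, 5′ to 3′ on the gene's strand, with the bases inside the silenced-only region in capitals. SQSTM1, DBN1, LTB4R2 and ZBED2 are shown because theirs were the highest silenced-only regions with at least 200 upstream bases inside, with 1 gene kept where a region met several. BCL2 is shown because its region changed sides between the cell lines. The stretches lie at chr5:179806759-179807008 on the plus strand, chr5:177473635-177473884 on the minus strand, chr14:24309890-24310139 on the plus strand, chr3:111595347-111595596 on the minus strand and chr18:63319770-63320019 on the minus strand, in the order of the lines.
SQSTM1: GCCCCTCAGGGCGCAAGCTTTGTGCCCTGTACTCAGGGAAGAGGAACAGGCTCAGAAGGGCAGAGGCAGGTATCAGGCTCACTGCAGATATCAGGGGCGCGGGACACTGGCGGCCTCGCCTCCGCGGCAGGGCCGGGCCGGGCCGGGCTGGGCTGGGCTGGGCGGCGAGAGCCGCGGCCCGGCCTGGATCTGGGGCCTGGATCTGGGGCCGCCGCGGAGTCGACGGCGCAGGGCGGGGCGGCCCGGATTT
DBN1: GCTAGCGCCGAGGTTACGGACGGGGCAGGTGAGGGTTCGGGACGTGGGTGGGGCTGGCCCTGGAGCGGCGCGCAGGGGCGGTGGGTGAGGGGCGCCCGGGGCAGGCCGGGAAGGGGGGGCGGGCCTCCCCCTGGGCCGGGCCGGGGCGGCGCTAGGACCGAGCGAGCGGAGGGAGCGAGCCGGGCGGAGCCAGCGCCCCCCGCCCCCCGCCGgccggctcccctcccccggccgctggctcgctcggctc
LTB4R2: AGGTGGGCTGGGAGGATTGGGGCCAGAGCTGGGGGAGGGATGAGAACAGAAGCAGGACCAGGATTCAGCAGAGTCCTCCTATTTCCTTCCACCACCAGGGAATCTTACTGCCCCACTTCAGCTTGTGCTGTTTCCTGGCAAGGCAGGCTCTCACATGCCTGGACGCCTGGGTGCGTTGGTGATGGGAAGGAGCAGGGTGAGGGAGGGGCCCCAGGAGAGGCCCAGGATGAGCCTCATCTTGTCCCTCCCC
ZBED2: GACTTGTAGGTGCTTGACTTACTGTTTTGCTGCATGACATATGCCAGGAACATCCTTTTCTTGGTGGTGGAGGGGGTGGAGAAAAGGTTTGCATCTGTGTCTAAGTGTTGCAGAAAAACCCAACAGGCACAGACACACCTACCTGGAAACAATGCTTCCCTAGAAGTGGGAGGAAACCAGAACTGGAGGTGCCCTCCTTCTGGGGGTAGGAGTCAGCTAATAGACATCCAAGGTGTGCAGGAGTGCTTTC
BCL2: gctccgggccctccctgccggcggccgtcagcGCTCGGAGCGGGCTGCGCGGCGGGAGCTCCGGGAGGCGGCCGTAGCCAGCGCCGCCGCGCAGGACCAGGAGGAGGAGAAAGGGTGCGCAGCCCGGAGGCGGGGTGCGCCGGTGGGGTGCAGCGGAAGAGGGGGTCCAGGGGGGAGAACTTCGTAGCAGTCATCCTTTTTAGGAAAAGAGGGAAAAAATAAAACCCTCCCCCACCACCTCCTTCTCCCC

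The 5 stretches were of unlike composition. SQSTM1, which encodes the autophagy receptor p62, had 73.6% G and C and 24 CG dinucleotides in the 250 bases. DBN1, which encodes the actin-binding protein drebrin, had 82.8% G and C and 33 CG dinucleotides, and BCL2 had 70.0% and 24. LTB4R2, a leukotriene B4 receptor gene, had 61.2% G and C with 2 CG dinucleotides, and ZBED2, a zinc finger gene, had 49.6% with 0. Over the 38 windows met by silenced-only regions the median G and C content of the 250 bases was 58.2%, beside 58.0% over all 33558. The E-box CACGTG, the sequence that MYC binds with its partner MAX, was searched on both strands and occurred in 2 of the 38 (5.26%) and in 6.28% of all windows; both were overlapping starts of the non-coding gene DIRC3. The AP-1 motif TGANTCA occurred in 4 of the 38 (10.5%), those of GABPB1, LOC101927950, PRR9 and UBXN6, and in 6.55% of all windows. The GC box GGGCGG occurred in 15 of the 38 (39.5%), among them SQSTM1 and DBN1, and in 42.6% of all windows. Matches outside the silenced-only region were counted too, such as the AP-1 match of UBXN6 and the GC box of RNF10. A match is a run of letters and not a bound site.

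Most silenced-only regions were low peaks. Their median height was 4 in each of the 3 silenced libraries, with quartiles of 3 and 5 in silenced replicate 1 and of 3 and 6 in the other 2. In 1015 of the 1600 (63.4%) the lowest of the 3 heights was exactly 3, the minimum that the rule allowed. Over all merged regions, counting the libraries with a peak, the share was 63.3%, so it did not set the silenced-only regions apart. A height of 3 in all 3 silenced libraries was found in 149. Only 25 had 10 or more in all 3 silenced libraries. The regions were 203 to 1038 bp wide, with a median of 373 bp. Of the 1600, 1346 (84.1%) had a deposited FDR of at most 0.05 in all 3 silenced libraries and 22 (1.38%) had an FDR of at most 1e-05 in all 3. By comparison, regions with a peak in all 6 KYSE510 libraries numbered 45090, and 49.7% of them had a lowest height of 7 or more. The share was 5.25% of the silenced-only regions and 11.5% of all merged regions.

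**Figure D1:**
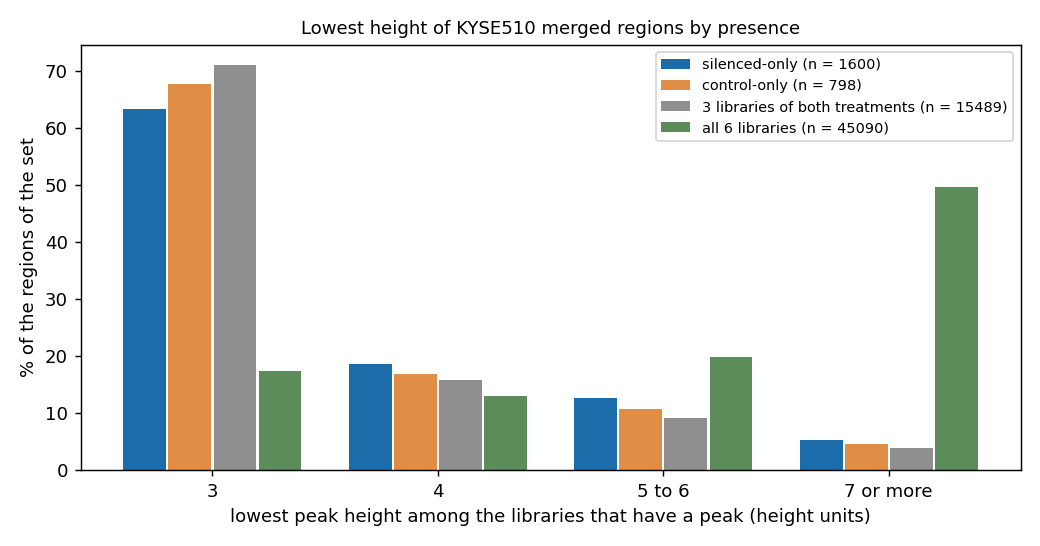
Bars give the percentage of KYSE510 merged regions, by set, whose lowest peak height among the libraries with a peak was 3, 4, 5 to 6 or 7 or more height units. The silenced-only (63.4%), control-only (67.7%) and mixed 3-library sets (71.1%) lie mostly at height 3, whereas 49.7% of the regions of all 6 libraries reach 7 or more.

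The mirror set, with a peak in all 3 control libraries and in none of the silenced ones, held 798 regions, 0.317% of the merged regions. An FDR of at most 0.05 in all 3 control libraries was found in 75.8% of these 798, and of at most 1e-05 in 0.627%. Regions present in exactly 3 libraries of both treatments numbered 15489. The 9 combinations of 2 silenced libraries with 1 control library held 645 to 1206 regions each, and the 9 combinations of 1 silenced with 2 control libraries held 567 to 934 each. The silenced-only set was thus the most numerous of the 20 combinations of 3 libraries. Presence in these same libraries chose the set, and the order of the counts was not tested. One alternative setting scaled the height minimum by relative depth. The implied background, the height expected from the depth of a library alone, was 0.217, 0.199 and 0.180 in control replicates 1 to 3 and 0.180, 0.198 and 0.216 in silenced replicates 1 to 3. With the height minimum scaled by it, 949 silenced-only and 858 control-only regions were found, a ratio of 1.11 in place of 2.01. Heights are whole numbers, so this setting asked for 4 in every library except control replicate 3, where it asked for 3. Silenced replicate 1, also at 0.180, was thus held to 4. A minimum of 4 in all 6 libraries did not lower the ratio. The 1.11 therefore belongs to an unequal minimum and is not an adjustment in proportion to depth.

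Many regions lay close to the edge of the rule. A control peak of height 2, under the minimum, lay over 271 of the 1600 regions, in 1 control library for 250 of them and in 2 for 21. No deposited control peak of any height lay over the other 1329 (83.1%). In the mirror set, 676 of the 798 control-only regions had no silenced peak of any height. Just outside, 3774 regions had a peak in all 3 silenced libraries and in 1 control library, and in 1311 of these (34.7%) the control height was 3. A further 7243 regions had a peak in 2 silenced and no control library, and in 308 of these the third silenced library had a peak of height 2. The nearest control peak of height 3 or more was a median of 3.56 kb away, and 202 regions (12.6%) had one within 500 bp. For control-only regions the nearest silenced peak was a median of 2.91 kb away, and 18.9% had one within 500 bp. A library without a deposited peak gives no height there, so absence does not mean a height of 0.

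The highest silenced-only regions lay in segments where the background was raised in all 6 KYSE510 libraries. Around the 10 highest, the median background of all peaks within 500 kb was 0.40 to 4.72 height units, whereas the implied backgrounds of the libraries were 0.180 to 0.217. Such segments were not particular to the 10 highest. The ratio to the implied background was 1.93 to 2.34 around the SMOC1 region, which was among the 10. It was 2.58 to 3.33 around the PRSS8 region, which was not. The part of the background in the peaks was not tested. The highest was 8:128032773-128033252, outside coding genes but inside the long non-coding RNA gene PVT1 and 290 kb from the start of MYC. Its heights were 62, 121 and 66 in silenced replicates 1 to 3, a mean of 83.0 ± 33.0 (SD, n = 3), and its fold enrichments over local background were 4.47, 6.89 and 3.88. No control peak of any height overlapped it, and the nearest control peak of height 3 or more was 1.67 kb away. The background at its own summit was 13.1 to 16.7 height units. The median background of all peaks within 500 kb was 3.62, 3.70 and 3.65 in the control libraries and 3.42, 3.84 and 4.50 in the silenced libraries, so the segment was raised in both treatments. In KYSE150 the same segment stood at 0.0826 to 0.120, and no KYSE150 library had a peak over the region.

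Also in PVT1, 8:127991475-127992037 had heights of 29, 26 and 24, a mean of 26.3 ± 2.52 (SD, n = 3). This region was the 1 silenced-only KYSE510 region that was also silenced-only in KYSE150. There the silenced libraries had heights of 8, 4 and 3, and the control libraries had 2, 1 and no peak. Its fold enrichments in KYSE510 were 8.77, 5.72 and 5.53. PVT1 is the non-coding neighbour of MYC and holds elements that contact the MYC promoter in some cancer cells.

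Within 500 kb of the MYC gene, a window chosen after the values were seen, 5 of 212 merged regions (2.36%, beside 0.636% of all merged regions) were silenced-only, 1 was control-only and 72 had peaks in all 6 libraries. Of these 5, 3 lay before MYC, at 278, 236 and 187 kb from the gene, with heights of 6, 7 and 7, of 27, 26 and 19 and of 12, 11 and 12. The other 2 were the PVT1 regions. MYC itself, with 1 kb on either side, had a peak in every KYSE510 library, with heights of 177, 108 and 122 in control and 131, 124 and 149 in silenced cells, and the groups overlapped. HCP5 and UTP3 also had peaks in all 6 libraries. The nearest silenced-only region was 928 kb from HCP5 and 45.3 kb from UTP3.

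The other 8 of the 10 highest regions were spread over 5 chromosomes. POU5F1B, a retrogene of the stem cell factor POU5F1, was the nearest coding gene of 8:127499391-127499792, which is the middle one of the 3 regions before MYC. SAMD12 held 8:118346686-118346963, with heights of 26, 24 and 17, and 8:118509227-118509592, with heights of 18, 28 and 20. The gene nearest to 15:100726380-100726649 was ASB7, a substrate adaptor of a ubiquitin ligase, and heights were 20, 20 and 21. SMOC1, which encodes a secreted matrix protein, held 14:69996262-69996548 with heights of 16, 19 and 24. ZNF536, a zinc finger gene, held 19:30365053-30365593 with heights of 17, 22 and 15 and 19:30338872-30339141 with heights of 15, 20 and 18. HDGF, a heparin-binding growth factor gene, held 1:156750322-156750540 with 16, 16 and 15. No control library had a peak of any height over any of these 8 regions. The background at the summits of the 10 regions was 2.06 to 16.7 height units, 9.52 times the implied background of the library or more. Over all 1600, the background was over 2 times the implied level in 407 (25.4%) and over 5 times in 88 (5.50%), beside 28.3 and 7.0% of all merged regions. Raised background was therefore no more frequent among the silenced-only regions than among all merged regions. It was shared by all of the 10 highest, but the summit background was solved from height, and height ranked these regions. A raised value at their summits thus follows in part from the ranking.

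**Figure D2:**
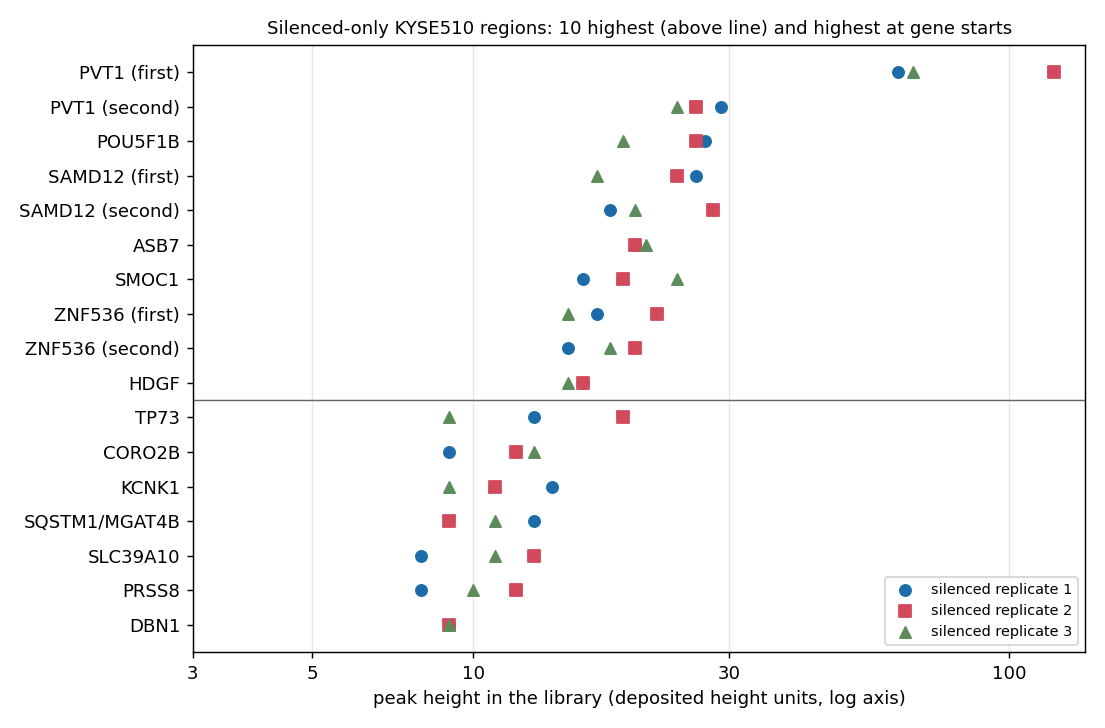
Points give the peak height (log axis, deposited height units) in each of the 3 silenced KYSE510 libraries for the 10 highest silenced-only regions and, under the line, the other 7 of the 8 highest at gene starts, labelled by gene. Heights run from 62 to 121 at the PVT1 region listed at the top down to 8 at the lowest points, those of silenced replicate 1 at SLC39A10 and PRSS8, and the control libraries have no peak over any of them.

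Few silenced-only regions lay at gene starts. Within 1 kb of an annotated start of a coding gene lay 49 of the 1600 (3.06%), against 65 of the 798 control-only regions (8.15%), 6.67% of the mixed 3-library regions, 21.1% of the regions of all 6 libraries and 7.77% of all merged regions. In 19 of the 49 the region covered the start. The median distance to the nearest start was 44.6 kb, beside 38.6 kb for control-only regions and 42.0 kb for all merged regions, and 786 regions (49.1%) lay inside a coding gene. The silenced-only share was the lowest of the 3-library sets at each height. Among regions with a lowest height of 3 it was 2.17% for silenced-only, 5.37% for control-only and 4.44% for mixed 3-library regions. With a lowest height of 7 or more it was 9.52, 18.9 and 19.1%, over 84, 37 and 617 regions. The shares are descriptions of regions chosen by their presence, and no test was made of them.

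**Figure D3:**
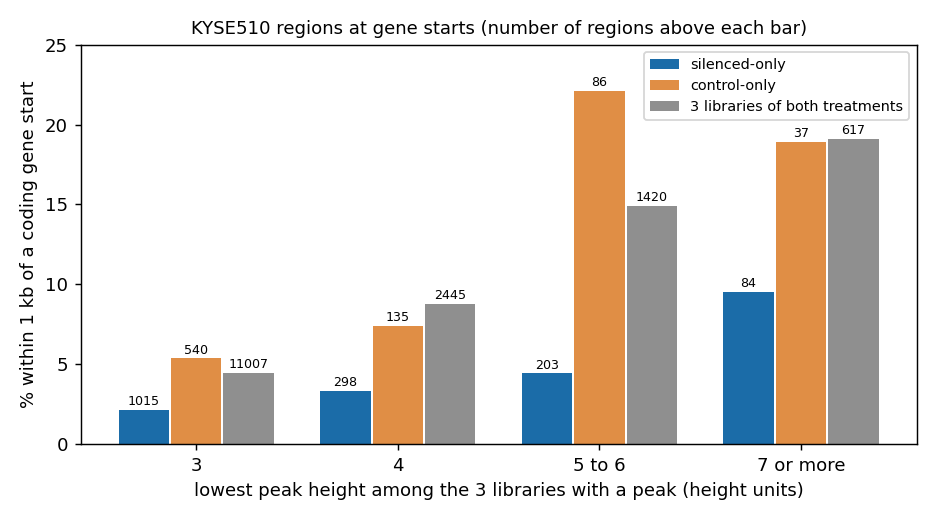
Bars give the percentage of regions within 1 kb of the start of a coding gene, by the lowest height among the 3 libraries with a peak, with the number of regions above each bar. The silenced-only bars run from 2.17 to 9.52% and are under the bars of both other sets at every height.

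At gene starts, the highest silenced-only region was that of HDGF, 0.753 kb inside the gene. TP73 encodes a p53-family transcription factor; its region 1:3698669-3699394 lay 0.623 kb after an internal start, with heights of 13, 19 and 9 and a nearest control peak 395 bp away. CORO2B, which encodes an actin-binding coronin, had 9, 12 and 13 at 15:68640809-68641304. KCNK1, a potassium channel gene, had 14, 11 and 9 at 1:233614239-233614537, and a control peak 120 bp away. The region 5:179806707-179807059 covered the starts of SQSTM1 and of MGAT4B, a glycosyltransferase gene, which run away from each other. Heights there were 13, 9 and 11. All 250 bases printed for SQSTM1 lay in it. SLC39A10, a zinc transporter gene, had 8, 13 and 11 at 2:195656062-195656493. PRSS8, which encodes the epithelial protease prostasin, had 8, 12 and 10 at 16:31135549-31135867, over an end of the gene, for which no start is listed. DBN1 had 9 in each library at 5:177473673-177474232, and a control peak lay 3 bp outside the region. At TP73, CORO2B, KCNK1, SLC39A10 and DBN1, 5 of these 8, a control peak thus lay within 500 bp, so control cells also had signal close to the start.

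Apoptosis genes were listed because the series title names the process. The 43 genes held or were nearest to 3 silenced-only regions (0.188% of the 1600) and 3 control-only regions (0.376% of the 798), beside 0.156% of all merged regions. The 3 silenced-only regions were BCL2 at 18:63319606-63319987, over the start, with heights of 3, 5 and 3; the gene of the BH3-only protein BIM, BCL2L11, at 2:111155690-111156116, with 3, 8 and 4; and PMAIP1, which encodes NOXA, at 18:59927158-59927462, 22.9 kb away, with 4, 3 and 6. Each of the 3 had a lowest height of 3, the minimum. BCL2 was also the gene of 1 of the 3 control-only regions. Of the 15 genes of the MYC network, only MYC had silenced-only regions, the 2 in PVT1 (0.125% of the 1600, beside 0.171% of merged regions), and MYC also had the 1 control-only region of the list (0.125% of the 798).

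Genes of squamous identity and adhesion held or were nearest to few of the regions. The 18 squamous lineage factors had 6 silenced-only regions, 1 each for ELF3, GRHL3, KLF4, PITX1, TFAP2A and TP63 (0.375%, beside 0.236% of merged regions), and 2 control-only regions (0.251%). Of the 6, only the TP63 region lay inside its gene; those of GRHL3, PITX1, KLF4 and TFAP2A lay 18.9, 71.8, 542 and 956 kb away. ELF3, an epithelial ETS factor, was the nearest coding gene of 1:202049102-202049438, 31.9 kb away, with heights of 12, 11 and 13. The region of TP63, the master regulator of squamous epithelium, had 3, 7 and 3 at 3:189718254-189718612. PITX1 had 5, 6 and 6 at 5:135106635-135106907. Integrin and basement membrane genes had 10 regions over 6 of 42 genes (0.625%, beside 0.371%) and 3 control-only regions (0.376%). LAMA2 had 3, LAMC1 and DST had 2 each, and ITGA2, ITGB1 and NID1 had 1 each; ITGA2, the collagen-binding integrin subunit, was highest with 4, 8 and 8. Keratin and cornified envelope genes had 2 silenced-only (0.125%, beside 0.141% of merged regions) and 2 control-only regions (0.251%). The 15 squamous markers had 4 silenced-only (0.25%, beside 0.123%) and 3 control-only regions (0.376%). Columnar epithelial markers had 1 (0.0625%, beside 0.0493%) and fibroblast and immune markers 2 (0.125%, beside 0.0609%), each with 0 control-only regions. PKP1, a desmosomal plakophilin, had 9, 10 and 7 at 1:201292087-201292396. PERP, a p53 target of desmosomes, had 6, 5 and 9 at 6:138109412-138109651, 1.99 kb from the gene. Peaks of height 10 or more at the gene start in all 6 KYSE510 libraries were found at 4 of 15 squamous markers (KRT17 and LAMB3 among them), at 0 of 10 columnar epithelial markers and at 0 of 11 fibroblast and immune markers.

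Signalling and cell cycle genes made up the rest of the counts. Receptor tyrosine kinases and their ligands had 18 regions over 15 of 59 genes (1.12%, beside 0.894% of merged regions) and 11 control-only regions (1.38%). IGF1R, the insulin-like growth factor receptor, was highest with 10, 14 and 8 at 15:98560386-98560697, 87.8 kb from the gene. Wnt pathway genes had 8 regions (0.50%, beside 0.36%) and 0 control-only regions. Among them was a region 70.7 kb from APC with 10, 3 and 5, where control replicate 1 had a peak of height 2. Another lay inside LGR5, a stem cell receptor gene, with 4, 9 and 5. Cell cycle genes had 4 regions (0.25%, beside 0.128%) and 0 control-only regions. Of these, 2 belonged to CCNE1, the cyclin that drives entry into S phase, with 6, 5 and 9 at 1.22 kb from its start and 9, 6 and 5 at 24.4 kb. Notch genes had 3 regions (0.188%, beside 0.205%), the highest at the ligand JAG2, and 0 control-only regions. The JAG2 heights were 7, 5 and 11. Genes of the YAP and TEAD pathway had 5 (0.312%, beside 0.189%), led by the phosphatase PTPN14, and 4 control-only regions (0.501%). The PTPN14 heights were 9, 9 and 6, in a region 15.2 kb from the gene. Epithelial-mesenchymal genes had 5 (0.312%, beside 0.241%) and 1 control-only region (0.125%). Interferon response genes had 1, 1.79 kb from MX1 (0.0625%, beside 0.119%), and 1 control-only region (0.125%). Neuronal adhesion and synapse genes, most of them very long, had 33 regions over 26 of 64 genes, 2.06% of the silenced-only and 2.95% of the merged regions, and 18 control-only regions (2.26%).

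The silenced-only regions were scattered. They were nearest to or inside 1389 coding genes of the 17731 with any merged region, and 1210 of these genes had 1 region each. MYLK4, BABAM2, NBAS, SLC8A1 and ASTN2 had 4 each, of 36, 44, 93, 95 and 134 merged regions, and none of these 20 regions had a mean height over 6.0. One 100-kb window held 3 silenced-only regions, all in BABAM2, at chromosome 2, with heights of 3 to 5. In 153 genes a silenced-only and a control-only region both occurred.

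In KYSE150, the silenced-only regions of KYSE510 were open in part. A KYSE150 peak of height 3 or more in at least 1 library lay over 664 of the 1600 (41.5%). Such a peak lay over 42.4% of control-only regions, 41.8% of mixed 3-library regions and 32.2% of all merged regions. For the regions of all 6 libraries it was 78.3%. The share per KYSE150 library was 18.1, 20.9 and 20.0% in control and 18.6, 20.8 and 16.1% in silenced cells, so the treatments overlapped. All 6 KYSE150 libraries had such a peak over 88 regions (5.50%), beside 4.39% of control-only and 10.2% of all merged regions. Counting KYSE150 peaks of any height, 210 regions (13.1%) had none, beside 16.9% of control-only and 24.7% of all merged regions. In all 6 libraries 235 (14.7%) had one, beside 11.2% of control-only and 15.7% of all merged regions. Peaks of height 1 make up most of the KYSE150 lists, which is why a height of 3 was asked for.

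**Figure D4:**
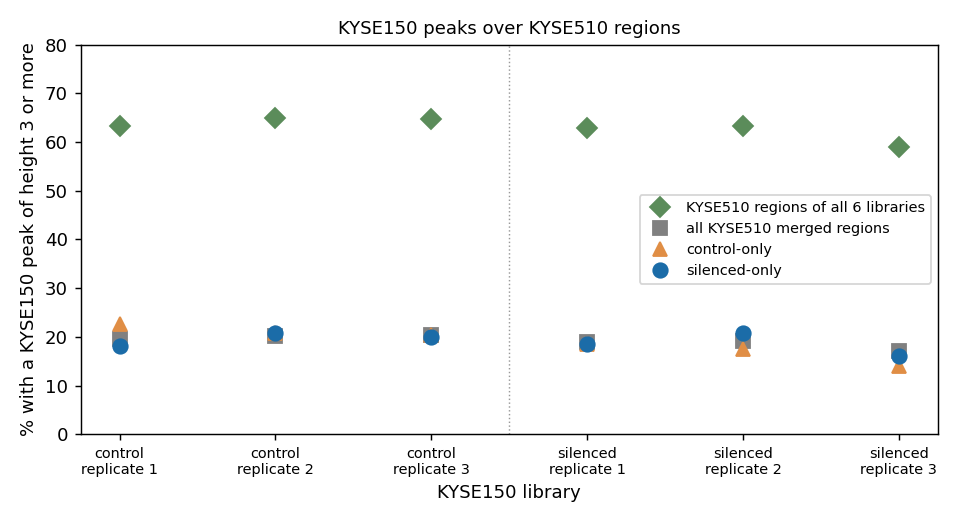
Points give, for each of the 6 KYSE150 libraries, the percentage of KYSE510 regions overlapped by a KYSE150 peak of height 3 or more. Silenced-only regions lie at 16.1 to 20.9%, among the control-only and all merged regions, and regions of all 6 KYSE510 libraries lie at 59.0 to 64.9%.

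Among the 88, the highest in KYSE510 were at TP73, KCNK1, TFG, SLC20A1, ATXN7L1, WDR54, SPMAP2L and PNPLA3. WDR54 was much higher in KYSE150 than in KYSE510: at 2:74425551-74425940 the KYSE150 heights were 26, 34 and 40 in control and 29, 35 and 35 in silenced cells, whereas the silenced KYSE510 libraries had 7, 10 and 8. At TP73 the KYSE150 control libraries had 6, 15 and 9 and the silenced ones 12, 9 and 5. At SLC20A1, which encodes a phosphate transporter, the values were 16, 11 and 9 against 13, 11 and 8. In none of these 3 did the KYSE150 treatments separate. Of the regions with no KYSE150 peak of any height, the highest were the PVT1 region at the top of the list, the SAMD12 region of 26, 24 and 17, the ASB7 region, the ZNF536 region of 17, 22 and 15, and TNKS1BP1 with 14, 13 and 14.

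The KYSE150 libraries took no part in the choice of the regions, so the effect of silencing in KYSE150 was tested there. Over the 39561 KYSE510 merged regions with a peak of any height in all 6 KYSE150 libraries, fold enrichments were ranked within each library, converted to normal scores and compared by limma. At a Benjamini-Hochberg adjusted p under 0.05, 0 regions were called (0%), and the smallest adjusted p was 0.432. At an unadjusted p under 0.05 there were 1076 higher and 1085 lower after silencing. The 235 silenced-only regions among them had 0 calls, and 0.909 was their smallest adjusted p. Without adjustment, 16 of them were higher and 10 lower at a p under 0.05. Their median difference, silenced minus control, was 0.15 score units, beside 0.00 over all 39561. The difference was above 0 in 150 of the 235 (63.8%), in 42 of 89 control-only regions (47.2%) and in 50.3% of all regions tested. The median percentile of their fold enrichment was 26.0, 28.4 and 24.0 in KYSE150 control replicates 1 to 3 and 29.1, 27.9 and 30.2 in silenced replicates 1 to 3, and the groups overlapped. Regions that lost or gained a peak altogether in KYSE150 could not enter this test.

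Such one-sided regions were counted directly. Silenced-only in KYSE150 was 1 of the 1600, the PVT1 region described above, against 0.109% of all merged regions. Control-only in KYSE150 were 3 of the 1600 (0.188%), against 0.293% of all merged regions. Both shares were near the background. The 3 that changed sides were at TTYH3, PMM2 and BCL2. The BCL2 start, whose upstream bases are printed above, had heights of 3, 5 and 3 in silenced KYSE510 cells and no control peak over it. A control peak of height 3 or more lay 101 bp from it, and 195 and 51 bp from the TTYH3 and PMM2 regions. In KYSE150 it had 4, 4 and 5 in control cells and no peak in the 3 silenced libraries.

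**Figure D5:**
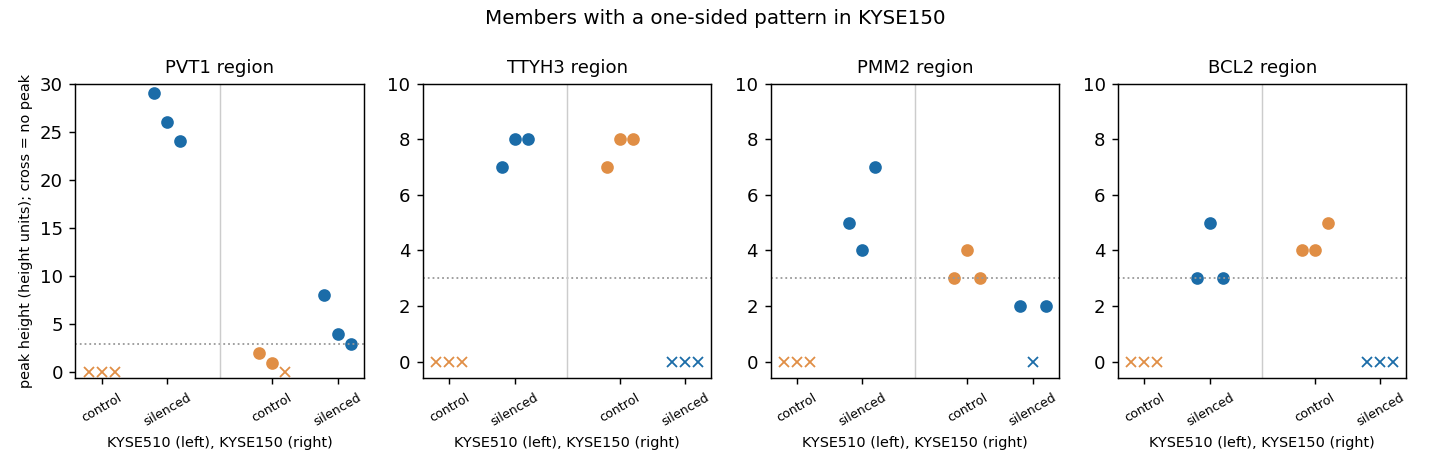
Points give the peak height in each of the 12 libraries at the 4 silenced-only KYSE510 regions with a one-sided pattern in KYSE150, crosses mark libraries with no peak, and the dotted line is the height minimum of 3. At PVT1 silenced libraries are higher in both lines; at TTYH3, PMM2 and BCL2 the silenced KYSE510 and the control KYSE150 libraries have the peak.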

How the data were processed

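ATAC-seq peaks were deposited by the authors as 1 table for each of 12 libraries. Per the submitters' processing notes, the tools included Trimmomatic 0.36, Bowtie2 2.2.6, Picard 2.8.2, MACS2 2.1.1 and bedtools 2.25.0, and the build was GRCh38. Per the file headers, each peak has a fold enrichment, a ratio to local background, and a p-value and an FDR. The authors' peak calling also gave each peak a pileup, a signal in whole numbers that is called height here, per the file headers. The largest deposited p-value was close to 0.01 in every library. Depth is unknown, so no counting interval was computed. The background of a peak was solved from height and fold enrichment, and the value shared by most peaks of a library, its implied background, stood in for relative depth.

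Merging, presence and annotation used Python 3.11.15 with pandas 2.3.3 and numpy 2.4.6; limma 3.58.1 in R 4.3.3 gave the KYSE150 test, which was also run on simulated data. Gene starts were those RefSeq lists on GRCh38.p14, or both ends of the 4191 of 20033 coding genes with no listed start. The regions named were the 10 highest by mean within-library percentile of height, the 8 highest at gene starts, the 8 highest with KYSE150 peaks in all 6 libraries, the 5 highest with none, the highest of each gene list and the genes with most regions. A region was assigned to the coding gene around or nearest to it. The regions and gene lists were chosen with earlier results of these data known. No genome sequence was used here, so sequences are limited to RefSeq's windows at gene starts. P-values measure the spread between libraries, which may be technical. The result of 1 gene list is not reported here.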

Additional observations from a re-analysis of the deposited data

Results flagged for a closer look

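At 3 regions the treatments were on opposite sides in the 2 cell lines, with a peak of height 3 or more in every silenced and no control library of KYSE510, and in every control and no silenced library of KYSE150. The difference between the lines was not tested. These 3 are 0.188% of the 1600, under the 0.293% of all KYSE510 merged regions that were control-only in KYSE150. A KYSE510 control peak of height 3 or more lay 195 bp from the TTYH3 region, 51 bp from the PMM2 region and 101 bp from the BCL2 region. At TTYH3, which encodes a chloride channel family protein, at 7:2633199-2633689, the mean height was 7.67 in silenced KYSE510 libraries (7, 8 and 8) and 7.67 in control KYSE150 libraries (7, 8 and 8). At PMM2, a phosphomannomutase gene, at 16:8828763-8829129, the mean was 5.33 in silenced KYSE510 libraries (5, 4 and 7) and 3.33 in control KYSE150 libraries (3, 4 and 3), and silenced KYSE150 libraries had 2, no peak and 2. At the BCL2 start, 18:63319606-63319987, the means were 3.67 (3, 5 and 3) and 4.33 (4, 4 and 5).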

How the results depend on the processing

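Silenced-only regions outnumbered control-only regions under each setting that kept all 6 KYSE510 libraries, by ratios of 1.11 to 2.37. The 1.11 was that of the scaled height minimum, which asked for a height of 4 in every library except control replicate 3. That minimum was not in proportion to depth, because heights are whole numbers. The counts moved by over 1.5 times at a height minimum of 5 (465 control-only), at an FDR of at most 1e-05 (764 silenced-only, 322 control-only) and with the height minimum scaled by implied background (949 silenced-only). These settings rebuilt the sets with the threshold applied to every library, so a weaker control peak no longer counted. Of the 1600, only 22 had an FDR of at most 1e-05 in all 3 silenced libraries. Their lowest height was 5 to 6 in 203 and 7 or more in 84. Most of the 764 regions, and of the 1091 silenced-only at height 5, were therefore not among the 1600. The shares given next for these settings are those of the rebuilt sets. Leaving out 1 library asks for fewer libraries and gave 2641 to 4521 silenced-only and 1600 to 2774 control-only regions; without control replicate 3 the order turned, with 2641 against 2774. The share at gene starts was 10.3% within 5 kb, 5.22% at height 5 and 5.63% at the stricter FDR, where control-only regions had 14.4 and 20.5%. The share with a KYSE150 peak was 86.9% at any KYSE150 height, 57.0% at height 5 and 67.4% at the stricter FDR. Control-only regions had 56.8 and 67.7% under the last 2 settings. The limma test gave 0 calls under all 10 alternatives, 0 also with a replicate block. Deviations of same-numbered KYSE150 libraries from their treatment means correlated only weakly, at 0.0491, 0.0504 and 0.00921. Between differently numbered libraries the correlations were -0.00215 to -0.0471, so a weak pairing by number is not excluded. On log2 fold enrichment the median over all regions tested was -0.13 and that of the silenced-only regions 0.01. On that scale 51.9% of the silenced-only regions were above 0, beside 34.8% of control-only and 34.1% of all regions tested. On rank scores the share of silenced-only regions above 0 was 57.9 to 63.8% when 1 KYSE150 library was left out. Heights of 3 to 5 limit what absence can show.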
